A study of Mus musculus with 20 samples.

Results

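Apoe and 7 other genes of brain lipoprotein transport were followed in the mouse cerebral cortex: Apoe, Apod, Abca1, Abca7, Abcg1, Lcat, Lrp1 and Sorl1. They were chosen by gene symbol, 8 genes of the 21949 in the deposited mRNA table, and the value of each gene is the sum of its transcripts. The series compares PS19 mice, which carry a human tau gene with the P301S mutation driven by the mouse prion protein (Prnp) promoter, with wild-type mice at 3 and 10 months. All mice had the (C57BL/6 x C3H)F1 background, and total RNA from frozen cortex gave 5 libraries in each of the groups WT03M and WT10M (wild type, 3 and 10 months) and TG03M and TG10M (transgenic, 3 and 10 months). Values are FPKM, fragment numbers divided by transcript length and by library size. The labels give no sex, batch or date and do not say that each replicate is a separate animal, so p-values measure the spread between these libraries.

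The adult brain makes its own lipoproteins, since plasma lipoproteins do not cross the blood-brain barrier. Apolipoprotein E, secreted mainly by astrocytes and also by microglia, is loaded with cholesterol and phospholipid by the membrane transporters Abca1 and Abcg1. Lcat esterifies the cholesterol, and particles enter neurons and glia through receptors of the LDL receptor family such as Lrp1. Sorl1 sorts cargo between endosomes and the Golgi, Abca7 moves phospholipids, and apolipoprotein D is a small lipid-binding lipocalin made by glia and perivascular cells. Human APOE, ABCA7 and SORL1 are Alzheimer risk genes.

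Of the 8 genes, Apoe was the only one that passed the test in any comparison, at an adjusted p under 0.05. It was higher in the transgenic cortex at 10 months, at 2375 ± 148 FPKM against 1964 ± 61.3 in the wild type (SD, n = 5 each). This result lay close to the threshold (limma adjusted p = 0.0390) and was lost when most single libraries were left out. The other 7 genes did not pass the test between genotypes at either age, or between ages in either genotype. At 10 months the difference was 1.21-fold for Apoe and also 1.21-fold for Apod, whose groups overlapped.

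All 8 genes passed the filter for testing, a mean of at least 0.5 FPKM over the 20 libraries. Of the 21949 genes, Apoe was the 6th most abundant by mean FPKM, at 2104. Apod had rank 760 (mean of 103 FPKM), Sorl1 rank 1554 (57.2), Lrp1 rank 1831 (49.4) and Abcg1 rank 3621 (25.8). Lcat had rank 7998 (8.22), Abca1 rank 8324 (7.47) and Abca7 rank 10119 (4.08). In this order each gene was above the next in 20 of 20 libraries, except that Lcat was above Abca1 in 14 of 20. No test between these 2 levels was run. The highest of the 20 libraries was 1.19 times the lowest for Abcg1, the steadiest gene, 1.42 times for Apoe and 1.90 times for Lcat, the most variable.

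The promoters of Apoe and Abca1 are shown. Apoe is the gene that passed the test. Abca1, like a second listed start of Sorl1, held a match with 1 mismatch to the DR4 element defined below. Each sequence shown is the 250 bases before a transcription start in RefSeq (GRCm38.p6), on the minus strand, at chr7:19699189-19699438 for Apoe and chr4:53159896-53160145 for Abca1. Capitals mark matches to 3 motifs on either strand: the TATA box TATAAA, the GC box with the letters GGGCGG, and the DR4 element, the paired half-site bound by the oxysterol receptor LXR with its partner RXR, here with at most 1 mismatch.
Apoe promoter: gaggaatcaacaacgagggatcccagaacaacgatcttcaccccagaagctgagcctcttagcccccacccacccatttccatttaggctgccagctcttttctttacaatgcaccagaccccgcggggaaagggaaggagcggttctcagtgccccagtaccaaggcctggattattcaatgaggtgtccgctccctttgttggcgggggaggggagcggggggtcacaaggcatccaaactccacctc
Abca1 promoter: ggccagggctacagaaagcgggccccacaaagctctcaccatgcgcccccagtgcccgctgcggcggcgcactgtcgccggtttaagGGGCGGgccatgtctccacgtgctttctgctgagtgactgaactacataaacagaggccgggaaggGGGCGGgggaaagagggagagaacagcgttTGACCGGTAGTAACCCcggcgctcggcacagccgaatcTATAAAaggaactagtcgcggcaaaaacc
The Abca1 promoter held 1 DR4 match, with 1 mismatch and its first base 67 bases before the start, 1 TATAAA at 29 bases and 2 GGGCGG. The Apoe window shown held none of the 3. It lies before the outermost start of the gene, at chr7:19699188. The 2 most abundant Apoe transcripts begin further in, at chr7:19699052 and chr7:19699008. The bases directly before those starts were outside all Apoe windows scanned. RefSeq lists 2 other Apoe starts, and of their windows chr7:19698622-19698871 held 2 TATAAA, 96 and 100 bases before the start, and chr7:19698399-19698648 held none of the 3. In this table, 7 of the 8 genes matched by symbol, and Abcg1 did not. Apart from Abca1, a DR4 match was found in 1 window, before a second listed start of Sorl1. Over all 32851 RefSeq promoter windows of this length, 4.05% held a DR4 match, 12.4% held TATAAA and 32.7% held GGGCGG. A match is a description of the letters and not a measured binding site.

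Some libraries stood apart from their groups. On the first principal component, WT10M replicate 5 and TG10M replicates 1 and 5 had scores of 26.2 to 30.9. Scores of the other 17 were -12.1 to -6.34 in the wild type and -1.90 to 2.52 in the transgenic libraries, without overlap. The 3 libraries that stood apart were also low in Hsp90aa1, a stress chaperone, as were TG03M replicates 2 to 5. Hsp90aa1 was at 13.9 to 20.5 FPKM in these 7 and 532 to 687 FPKM in the other 13. In addition, mt-Co1, a mitochondrial transcript, ran from 5998 to 6915 FPKM in the other 9 wild-type libraries, was 13045 in WT10M replicate 5, and ran from 8514 to 11807 in the transgenic libraries. Prnp, whose promoter drives the transgene, ran from 412 to 528 FPKM in the wild type and from 695 to 841 in the transgenic libraries, so every library matched its labelled genotype. Neuron markers (8 genes) summed to 2816 to 3137 FPKM in all groups, and of 5 liver markers, 4 had means under 0.5 FPKM, with 1 of these at 0 in every library. The remaining liver marker, Apoa2, had group means of 0.417 to 1.28 FPKM. Choroid plexus markers, led by Ttr (4.79 to 996 FPKM), varied widely within groups. From the spacing of low values, the estimated depth lay between 22.8 and 30.3 M (mega) fragments in each library, which puts Lcat, the gene with the fewest fragments, at 188 to 421 and Abca7 at 561 to 846 fragments per library.

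**Figure D1:**
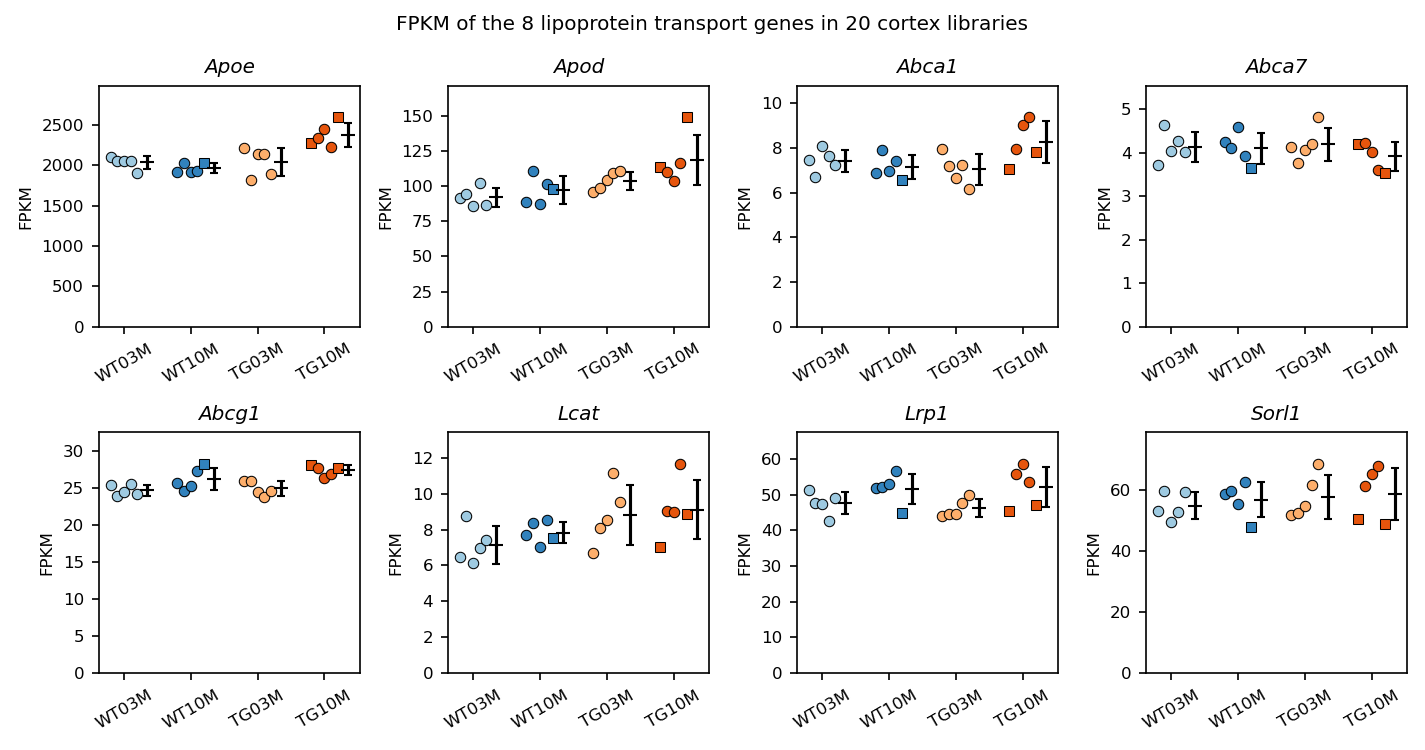
FPKM of the 8 genes (y axes, each from 0) in the 20 libraries by group (x axes). Points are libraries, squares are WT10M replicate 5 and TG10M replicates 1 and 5, and the bars to the right of the points give mean and SD (n = 5). The 5 TG10M libraries of Apoe lie between 2222 and 2593, above all 15 others.

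Apoe (chr7:19696109-19699188, minus strand, GRCm38) was first compared between genotypes at each age. At 10 months, the WT10M replicates 1 to 5 had 1913, 2027, 1915, 1929.7 and 2034 FPKM. The TG10M replicates had 2273, 2339, 2449, 2222 and 2593 FPKM. Every transgenic library was above every wild-type library at this age, and the lowest of TG10M was also above the highest of the younger groups. The difference was 0.27 on the log2(FPKM + 0.5) scale, or 1.21-fold (SE 0.06, 95% interval 0.15 to 0.40), with an adjusted p of 0.0390 from limma with Benjamini-Hochberg adjustment over the 13722 tested genes. Thus 1 of the 8 genes was called at 10 months, against 0.634% of all tested genes, and 1 of 8 did not overlap between the groups, against 2.38% of all.

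The size of the Apoe difference held while its call lay close to the threshold of 0.05. Without each of the 10 libraries in turn it was 0.24 to 0.30, with adjusted p of 0.00815 without WT10M replicate 5 and 0.0519 to 0.129 without any other 1 of the 10, so that the call ended in 9 of 10 cases. Over all tested genes, 87 were called with all libraries, 1600 without WT10M replicate 5 and 28 to 66 without any other 1 of the 10, so the background share moved with that library. The call also ended with no filter on low genes (adjusted p = 0.129), after quantile normalization (0.120), with only the compared groups in the fit (0.154) and with the most abundant transcript in place of the gene sum (0.197). The difference was 0.26 (adjusted p = 0.0370) without the 3 libraries that stood apart, which leaves the other 7 libraries of this age. Among those 3 it was also 0.26, between TG10M replicates 1 and 5 and the single wild-type library, WT10M replicate 5. In the other 7, the genotypes were still apart on the first principal component, at -11.0 to -6.34 in WT10M and -1.37 to 2.52 in TG10M. The same held for mt-Co1, at 6379 to 6915 and 8627 to 8899 FPKM. Leaving out the 3 libraries therefore does not separate genotype from these library differences.

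**Figure D2:**
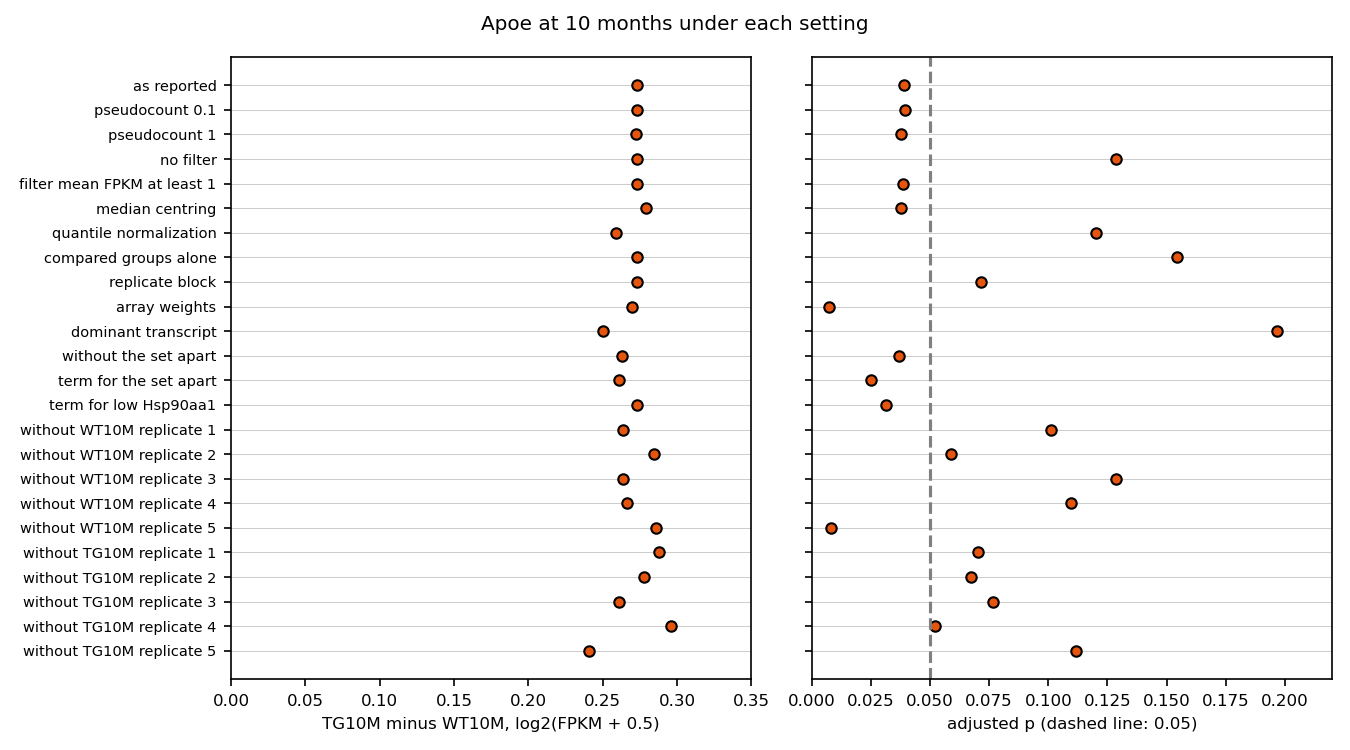
Apoe, TG10M minus WT10M on the log2(FPKM + 0.5) scale (left) and its limma adjusted p (right, dashed line at 0.05), as reported and under 23 other settings (rows). "The set apart" is WT10M replicate 5 and TG10M replicates 1 and 5. The difference stays between 0.24 and 0.30, while the adjusted p runs from 0.00728 to 0.197.

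At 3 months, the WT03M replicates 1 to 5 had 2103, 2051, 2059, 2056 and 1904 FPKM of Apoe. The TG03M replicates had 2212, 1821, 2143, 2136 and 1893 FPKM. The transgenic libraries lay on both sides of the wild-type ones, with replicates 2 and 5 lowest, and the means were 2041 ± 173 and 2034 ± 75.7 FPKM (SD, n = 5 each). The difference was 0.00 (95% interval -0.12 to 0.12, adjusted p = 0.998 by limma). TG03M replicates 2 to 5, which were low in Hsp90aa1, differed in Apoe by -0.15 on average from replicate 1, a single library that was not. No WT03M library was low in Hsp90aa1, so at 3 months genotype and this state of the libraries can hardly be told apart. In the wild type, 10 against 3 months differed by -0.05 (interval -0.17 to 0.07, adjusted p = 0.913). In the transgenic cortex the 10-month libraries were all above the 3-month ones, by 0.22 (interval 0.10 to 0.34), with an unadjusted p of 0.00131 and an adjusted p of 0.0779. The test of whether the genotype difference itself changed with age gave 0.27 (SE 0.08, unadjusted p 0.00402, adjusted p = 0.800). That test also uses TG03M and so has the limit given for 3 months.

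Markers of several cell types were read beside Apoe at 10 months. The summed level of 8 astrocyte markers was 1205 to 1366 FPKM in WT10M and 1482 to 1640 FPKM in TG10M. Of the 8, 2 rose, Gfap (1.34, adjusted p = 0.000134) and the water channel gene Aqp4 (0.52, adjusted p = 0.00162). Of the other 6 astrocyte markers none was called, and Gja1, a gap junction gene, had a difference of -0.22 (adjusted p = 0.645). Without the 3 libraries that stood apart, Aldh1l1, Slc1a3, Aldoc and S100b passed (0.20 to 0.27, limma adjusted p of 0.0192 to 0.0468). Slc1a2 did not (adjusted p = 0.182), and Gja1 differed by -0.12 (adjusted p = 0.390). That fit called 326 of the 13722 tested genes. With a term for those 3 libraries, Aldh1l1 and Slc1a3 passed, and Aldoc and S100b did not (adjusted p = 0.114 and 0.0753). The summed level of 7 microglia markers was 136 to 183 FPKM in WT10M and 179.9 to 236 FPKM in TG10M, and 1 of the 7 rose, the lysosomal protease gene Ctss (0.62, adjusted p = 0.0235). The Ctss call ended without any 1 of WT10M replicates 1 to 4 and TG10M replicates 1 and 4 (adjusted p up to 0.0885), while Gfap and Aqp4 kept theirs without each library in turn. Of 7 markers of mural cells and perivascular fibroblasts, summing to 78.0 to 101 FPKM in WT10M and 102 to 139 FPKM in TG10M, 1 rose, Vtn (0.58, adjusted p = 0.0237), a call that ended without any 1 of WT10M replicates 1, 3 and 4 and TG10M replicate 1 (adjusted p up to 0.0909). Csf1r of the microglia list passed without the 3 libraries that stood apart (0.33, limma adjusted p = 0.0421). So did Tubb3 of the neuron list (0.18, adjusted p = 0.0323). With all libraries, none of the 8 neuron markers was called. Of 8 oligodendrocyte, 6 oligodendrocyte precursor and 6 endothelial markers none was called either. Higher on average in TG10M were 8, 5 and 6 of them, with list medians of 0.19, 0.15 and 0.24. The astrocyte list had 7 of 8 higher and a median of 0.25. All 7 microglia markers and all 7 of the mural and perivascular list were higher, with medians of 0.28 and 0.24. Of the neuron list 5 of 8 were higher, with a median of 0.00. Choroid plexus and blood markers also had none called, with medians of -0.21 and 0.16. The part of these cell types in the Apoe difference was not tested, and in whole cortex a larger number of Apoe-expressing cells and more Apoe RNA per cell cannot be told apart.

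Apoe had 10 transcripts in the table. ENSMUST00000174355, protein coding (4 exons, 1104 bases), took 42.6 to 45.5% of the Apoe FPKM by group mean. ENSMUST00000167646, annotated as a processed transcript with no coding sequence (5 exons, 728 bases), took 44.1 to 46.0%. Both had their highest group mean in TG10M, at 1036 ± 103 and 1075 ± 75.6 FPKM, against 837 ± 73.1 and 903 ± 34.2 in WT10M (SD, n = 5). The share of ENSMUST00000167646 differed between TG10M and WT10M by -0.72 percentage points (exact permutation test, two-sided, p = 0.571, adjusted p = 0.940 over 16 such tests). These transcripts share most of their sequence, so the split rests on the submitters' estimation.

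The other apolipoprotein among the 8, Apod (chr16:31296192-31314808, minus strand), was next most abundant. The WT10M replicates 1 to 5 had 88.4, 111, 87.4, 101.4 and 97.6 FPKM, and the TG10M replicates had 113, 110.2, 104, 116 and 149 FPKM. The groups overlapped, since WT10M replicate 2 was above TG10M replicates 2 and 3, and TG10M replicate 5 stood far above the rest. The difference was 0.28 (interval 0.10 to 0.46, adjusted p = 0.147 by limma), near that of Apoe with more spread, and it was 0.19 among the 7 libraries that did not stand apart. At 3 months Apod was 92.1 ± 6.76 in the wild type and 104 ± 6.47 FPKM in the transgenic cortex (SD, n = 5; difference 0.17, adjusted p = 0.482). Age differences were 0.07 in the wild type and 0.18 in the transgenic cortex (adjusted p = 0.911 and 0.303). Its 2 transcripts kept shares near 80% and 20%.

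**Figure D3:**
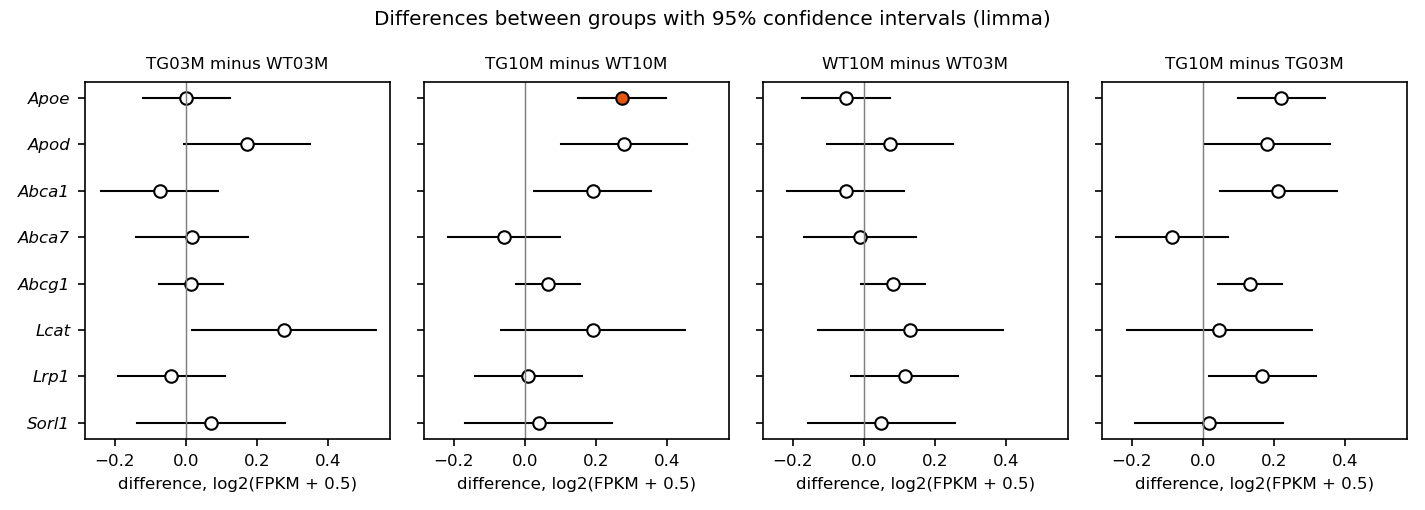
Differences of the 8 genes (rows) in 4 comparisons (panels) on the log2(FPKM + 0.5) scale, with 95% confidence intervals from limma over 20 libraries. The filled point, Apoe at 10 months, is the only one past the adjusted p of 0.05. Comparisons that share a group are not independent.

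The exporters of cholesterol and phospholipid came next in the pathway. Abca1 (chr4:53030787-53159895, minus strand) lipidates nascent apolipoprotein E. In WT10M replicates 1 to 5 it had 6.86, 7.90, 6.99, 7.43 and 6.58 FPKM, and in TG10M 7.08, 7.98, 9.04, 9.38 and 7.80 FPKM. The groups overlapped, with 3 transgenic libraries above all 5 wild-type ones, and the difference was 0.19 (interval 0.03 to 0.35, adjusted p = 0.282 by limma). At 3 months it was -0.07 (adjusted p = 0.779), 7.05 ± 0.685 FPKM in the transgenic and 7.43 ± 0.499 in the wild-type cortex (SD, n = 5). The interval of the change of this difference with age was 0.03 to 0.50, and its adjusted p was 0.962.

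Abcg1 (chr17:31057675-31117988, plus strand) adds cholesterol to particles already lipidated. It had 26.0, 25.9, 24.5, 23.8 and 24.5 FPKM in TG03M replicates 1 to 5 and 28.1, 27.7, 26.4, 26.9 and 27.7 FPKM in TG10M. All 5 older transgenic libraries were above all 5 younger ones, by 0.13 (interval 0.04 to 0.22), yet the adjusted p was 0.149. Together with Apoe, 2 of the 8 genes did not overlap between the ages in the transgenic cortex, against 3.42% of all tested genes, and 0 of 8 were called, against 0.845%. By unadjusted p under 0.05, 5 of the 8 differed in this comparison (Apoe, Abcg1, Abca1, Lrp1 and Apod), against 16.1% of all tested genes. In this comparison 4 of the 5 TG03M libraries and 2 of the 5 TG10M libraries were low in Hsp90aa1. With a term for those libraries in the fit, Abcg1 differed by 0.15 (adjusted p = 0.0307) and Apoe by 0.22 (adjusted p = 0.0214), in a fit that called 2319 of the 13722 tested genes against 116 as reported. Between genotypes Abcg1 differed by 0.01 at 3 months and 0.06 at 10 months (adjusted p = 0.942 and 0.503), and the interval at 10 months was -0.03 to 0.15.

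Abca7 (chr10:79996494-80015572, plus strand), a phospholipid transporter also tied to phagocytosis, was the lowest of the 8. It ran from 3.64 to 4.59 FPKM in WT10M and from 3.52 to 4.21 in TG10M, and the ranges overlapped almost wholly. Its differences were 0.02 and -0.06 between genotypes at 3 and 10 months (adjusted p = 0.961 and 0.747), and -0.01 and -0.09 between ages in the wild type and the transgenic cortex (adjusted p = 0.987 and 0.553). Of its 3 transcripts, ENSMUST00000132517 had 56.8 to 60.2% of the FPKM by group mean.

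Lcat (chr8:105939551-105943382, minus strand), which esterifies cholesterol on the particle, was higher on average in the transgenic cortex at both ages without passing the test. In WT03M replicates 1 to 5 it had 6.46, 8.78, 6.12, 6.95 and 7.42 FPKM, and in TG03M 6.71, 8.11, 8.55, 11.1 and 9.53 FPKM. At 10 months it had 7.72, 8.35, 7.05, 8.51 and 7.51 FPKM in WT10M and 7.01, 9.01, 8.96, 11.7 and 8.89 FPKM in TG10M. The groups overlapped at both ages, with transgenic replicate 4 highest and replicate 1 lowest among the transgenic libraries each time, although replicate numbers do not pair the libraries. The differences were 0.28 (interval 0.02 to 0.54, adjusted p = 0.433) and 0.19 (interval -0.07 to 0.45, adjusted p = 0.489 by limma). The mean spread within groups was 14.8% of the mean, above the counting error of 7.30% in the library with the fewest Lcat fragments.

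Lrp1 (chr10:127538161-127621148, minus strand), a large endocytic receptor for apolipoprotein E, had a difference between genotypes at 10 months of 0.01, which did not pass the test (interval -0.14 to 0.16, adjusted p = 0.963). It had 51.7, 52.1, 53.0, 56.5 and 44.7 FPKM in WT10M replicates 1 to 5 and 45.4, 55.7, 58.6, 53.6 and 47.0 FPKM in TG10M. The 3 libraries that stood apart were the 3 lowest of these 10. In TG03M it had 44.1, 44.6, 44.7, 47.7 and 49.8 FPKM, and the age difference in the transgenic cortex was 0.17 (interval 0.02 to 0.32, adjusted p = 0.270). Without the 3 libraries that stood apart this age difference was 0.28 with an adjusted p of 0.0354, past the threshold, in a fit that called 73 of the 13722 genes. In the wild type, age differed by 0.11 (adjusted p = 0.856), and between genotypes at 3 months the difference was -0.04 (adjusted p = 0.883).

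Within Lrp1, the balance of transcripts varied between libraries. ENSMUST00000049149 is the full transcript (89 exons, 14888 bases), and ENSMUST00000121829 is a short protein-coding model of the 5′ part (13 exons, 2887 bases). The short model took 5.59, 6.29, 9.84, 5.60 and 8.29% of the Lrp1 FPKM in WT03M replicates 1 to 5 and 7.25, 10.6, 11.7, 6.69 and 10.6% in TG03M. In WT10M it took 9.12, 8.12, 6.66, 8.08 and 20.1%, and in TG10M 16.9, 10.9, 11.0, 13.4 and 24.0%. The 3 highest shares, 16.9% and above, were those of the 3 libraries that stood apart, and all others were at most 13.4%. The share of the full transcript was 5.94 percentage points lower in TG10M than in TG03M (83.3 ± 5.16% against 89.2 ± 1.92%, SD, n = 5), with an exact permutation p of 0.00794, the smallest that 5 against 5 libraries allow, and an adjusted p of 0.127 over 16 tests. Without those 3 libraries the difference was -2.42 points (exact permutation p = 0.0536). None of the 16 tests of transcript shares, over Apoe, Apod, Abca7 and Lrp1, passed adjustment.

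**Figure D4:**
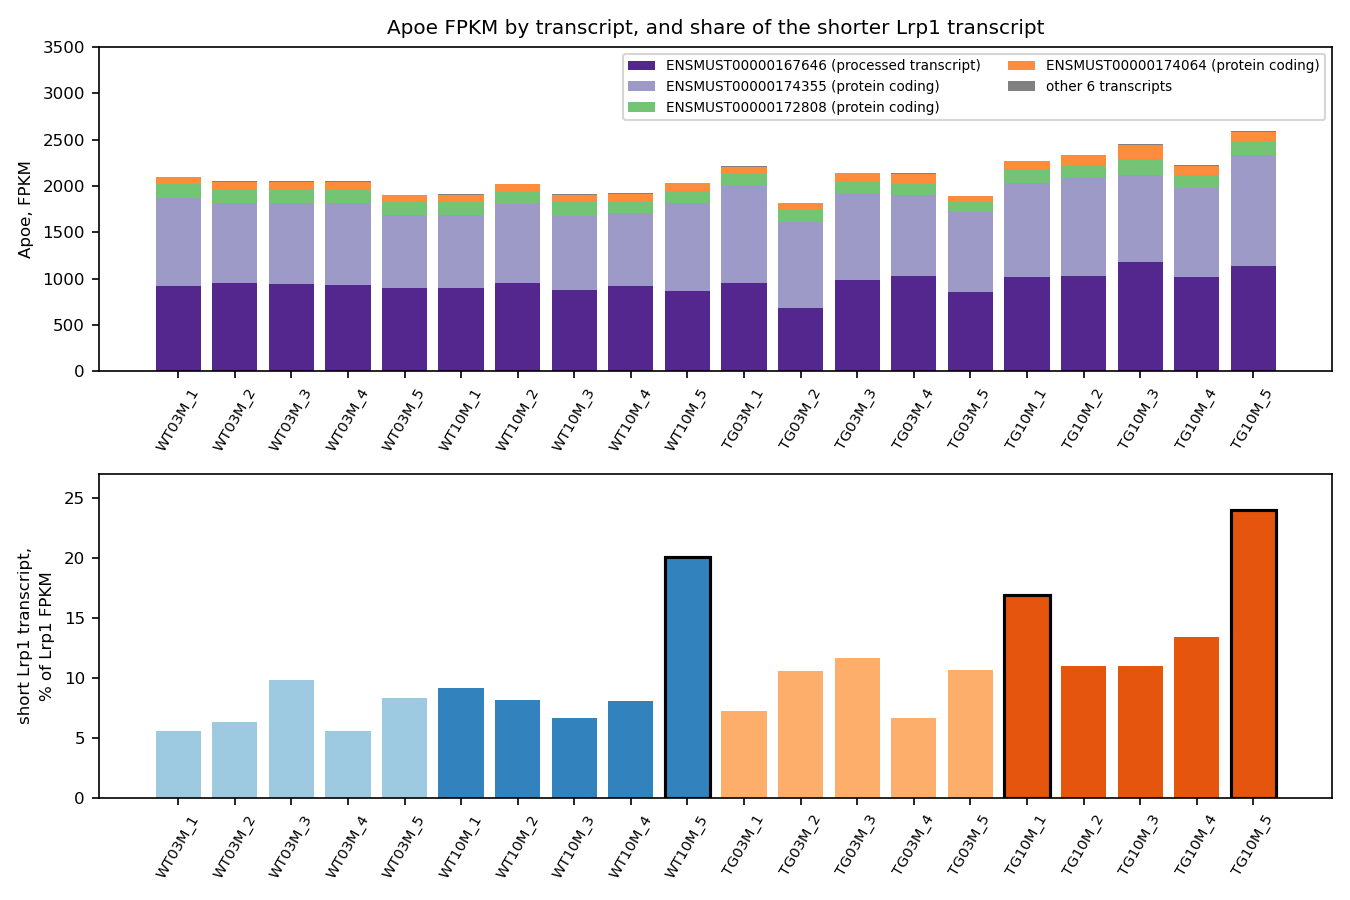
Top, Apoe FPKM (y axis) in each library (x axis, group and replicate), stacked by transcript. Bottom, the share of Lrp1 FPKM from the short transcript ENSMUST00000121829, with black outlines on WT10M replicate 5 and TG10M replicates 1 and 5, which have 16.9 to 24.0% against at most 13.4% elsewhere.

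Sorl1 (chr9:41964720-42124297, minus strand), the sorting receptor, passed the test in no comparison. It ran from 47.9 to 62.8 FPKM in WT10M and from 48.9 to 67.9 FPKM in TG10M, with the 3 libraries that stood apart again lowest. Its differences were 0.07 and 0.04 between genotypes at 3 and 10 months (adjusted p = 0.842 and 0.881), and 0.05 and 0.02 between ages in the wild type and transgenic cortex (adjusted p = 0.947 and 0.943). The interval at 10 months was -0.17 to 0.25.

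At 3 months 0 of the 8 genes were called between genotypes, against 0.299% of all tested genes, and by unadjusted p under 0.05 only Lcat differed, 1 of 8 against 10.6%. In 0 of the 8 were the genotypes free of overlap at this age, against 4.48% of all tested genes. With age in the wild type 0 of 8 were called, against 0.0656%, and 0 of 8 had an unadjusted p under 0.05, against 6.72%, and 0 of 8 were free of overlap, against 1.65%. At 10 months 3 of 8 had an unadjusted p under 0.05 (Apoe, Apod and Abca1), against 14.1%. In the test of change with age 0 of 8 were called, against 0.0364%, and 2 of 8 had an unadjusted p under 0.05 (Apoe and Abca1), against 5.04%.

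Across the 20 libraries, correlations describe which genes varied together; groups and libraries are shared by all points, and no p is given. Among the 8 genes, the closest pairs by Pearson's r of log2 values were Lcat with Sorl1 (0.70) and Lrp1 with Sorl1 (0.69), followed by Apoe with Apod (0.65), Apod with Lcat (0.57) and Apoe with Abca1 (0.55). In the 17 libraries that did not stand apart these were 0.82, 0.64, 0.41, 0.78 and 0.67. Predicted gene models (symbols with Gm and digits, or with Rik) were left out of the search for similar genes. Among the other tested genes with a mean of at least 1 FPKM, those most like Apoe were Kcne1l (r = 0.89), Gpam (0.82), Mlc1 (0.78) and Vasp (0.77). Gpam makes glycerolipids and Mlc1 is a membrane protein of astrocyte endfeet. The 2 genes most like each of the others were Vtn (0.85) and Fn1 (0.82) for Apod, Hsd17b11 (0.76) and Csf1 (0.75) for Abca1, Dixdc1 (0.77) and Srsf6 (0.76) for Abca7, and Rabggta (0.91) and Nceh1 (0.88) for Abcg1. For Lcat they were Pabpc4 (0.89) and Vgf (0.87), for Lrp1 Tenm4 (0.81) and Deptor (0.78), and for Sorl1 Usp32 (0.92) and Gfra2 (0.89).

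The rest of the pathway was read from 7 lists with 76 other genes, of which 70 were tested. At 10 months 3 rose and 1 fell in the transgenic cortex, 5.71% of the 70 against 0.634% of all tested genes, and the median difference of the 70 was 0.04 against 0.00 for all genes. At 3 months 1 rose (1.43% against 0.299%), with age 1 rose in the wild type (1.43% against 0.0656%) and 3 in the transgenic cortex (4.29% against 0.845%), and in the test of change with age none was called. The lists were drawn up with results of these data known, so these shares are a description.

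Clu, clusterin or apolipoprotein J, was the one of 5 tested other apolipoproteins that rose, and it rose at both ages. At 3 months it was 385 ± 36.0 FPKM in the transgenic and 312 ± 14.1 in the wild-type cortex (SD, n = 5; difference 0.30, adjusted p = 0.0375 by limma). At 10 months it was 399 ± 31.1 against 309 ± 9.40 FPKM (difference 0.36, adjusted p = 0.00580). The transgenic libraries lay above all wild-type ones at both ages. The call at 10 months was kept without each of the 10 libraries in turn, whereas the call at 3 months ended in 9 of 10 cases, all except leaving out TG03M replicate 1, and with the term for libraries low in Hsp90aa1 (adjusted p = 0.125). The test of whether the difference changed with age gave 0.07 (adjusted p = 0.980).

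The list of LDL receptor family and scavenger receptors had 14 tested genes. The only one called was Trem2, a microglial lipid and lipoprotein receptor that belongs to neither family. It rose at 10 months from 9.07 ± 1.95 to 14.6 ± 2.20 FPKM (SD, n = 5; difference 0.67, adjusted p = 0.0202 by limma). Its call ended without WT10M replicate 1 or 3 or TG10M replicate 1 or 4 (adjusted p up to 0.0679). Within the transgenic cortex it rose with age by 1.08 (adjusted p = 0.000107), a call kept without each library in turn. Lrp10, next by p at 10 months, had a difference of 0.21 (adjusted p = 0.188).

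Of 10 enzymes and transfer proteins, Pltp, which moves phospholipid between lipoproteins, rose at 10 months from 21.96 ± 2.82 to 30.1 ± 3.78 FPKM (SD, n = 5 each; difference 0.45, adjusted p = 0.0390 by limma). That call ended without the 3 libraries that stood apart (0.36, adjusted p = 0.125) and without any 1 of WT10M replicates 3 and 4 and TG10M replicates 1, 2 and 5 (adjusted p up to 0.116). Cyp27a1, which makes 27-hydroxycholesterol, rose with age in the transgenic cortex from 1.79 ± 0.181 to 2.49 ± 0.139 FPKM (0.38, adjusted p = 0.0376), and its difference in the wild type was 0.39 (adjusted p = 0.158). The Cyp27a1 call ended without the 3 libraries that stood apart (adjusted p = 0.196) and without any 1 of TG03M replicates 2, 3 and 5 and TG10M replicates 1, 2, 4 and 5.

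Of 12 sterol-sensing nuclear receptors and sterol regulatory factors, Pparg, a lipid-activated nuclear receptor, fell at 10 months from 5.498 ± 0.624 to 3.51 ± 0.547 FPKM (SD, n = 5; difference -0.59, adjusted p = 0.0422 by limma). For Pparg the call ended without the 3 libraries that stood apart (-0.56, adjusted p = 0.0924) and without any 1 of 8 of the 10 libraries, all except WT10M replicate 5 and TG10M replicate 4. Its most abundant transcript alone differed by -0.19 (adjusted p = 0.744). Srebf2, the master regulator of cholesterol synthesis genes, differed by -0.30 (adjusted p = 0.266).

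Of 10 other ABC transporters, Abca8a rose with age in the wild type from 1.94 ± 0.210 to 3.92 ± 0.822 FPKM (SD, n = 5; difference 0.84, adjusted p = 0.0195 by limma) and in the transgenic cortex from 2.02 ± 0.479 to 3.26 ± 0.616 FPKM (0.58, adjusted p = 0.0476). The Abca8a call in the transgenic cortex ended without the 3 libraries that stood apart (adjusted p = 0.280) and without any 1 of 8 libraries, all except TG03M replicate 3 and TG10M replicate 4. In the wild type it ended without any 1 of WT03M replicates 1, 2 and 4 and WT10M replicates 1, 4 and 5 (adjusted p up to 0.0667). Of 10 sortilin family receptors and adaptors and 9 tested genes of intracellular cholesterol transport, 0 were called in any comparison. Sort1 differed by 0.16 at 10 months (adjusted p = 0.136) and Npc2, a lysosomal cholesterol carrier, by 0.19 (adjusted p = 0.149). With only the compared groups in the fit, the calls of Clu at 3 months (adjusted p = 0.0395) and Trem2 with age (0.00200) were kept, and all other calls named for these lists ended, with adjusted p of 0.0508 for Clu at 10 months and 0.0553 to 0.159 for the rest.

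**Figure D5:**
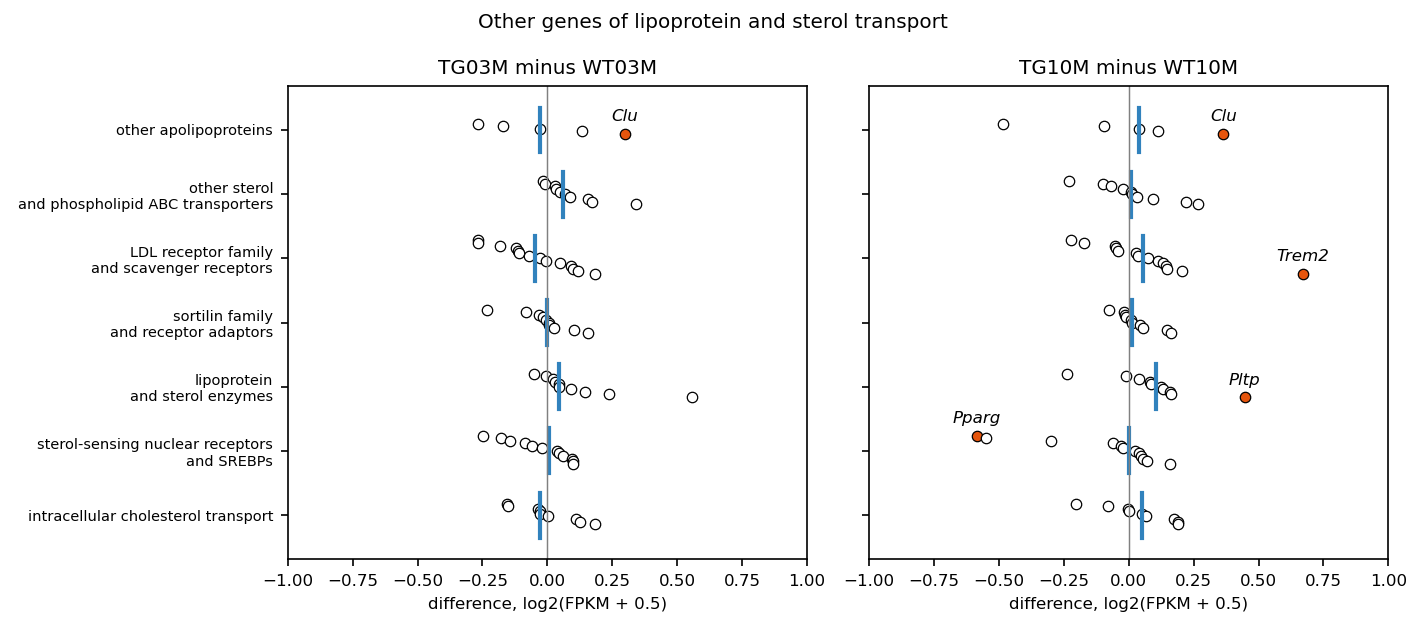
Differences of the 70 other genes of the pathway on the log2(FPKM + 0.5) scale (x axes), by list (rows), at 3 months (left) and 10 months (right). Filled points are genes past an adjusted p of 0.05 (limma) and blue bars are list medians; Clu is called at both ages, and Trem2, Pltp and Pparg at 10 months.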

How the data were processed

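The authors deposited FPKM per transcript for 20 libraries, per the labels. The submitters' processing notes name CASAVA, TopHat2, Cuffdiff and DESeq2 and the build GRCm38 (mm10). Which tool did which step, and in which version, is not stated in any source used here. Coordinates and transcript types are from GENCODE M21 (GRCm38), promoters from RefSeq (GRCm38.p6).

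Transcript FPKM were summed per gene ID, and 27 symbols that a spreadsheet had turned into dates were restored by gene ID. limma 3.58.1 in R 4.3.3 was fitted to log2(FPKM + 0.5) of the 13722 genes whose mean reached 0.5 FPKM (eBayes with trend, 1 mean per group, 16 residual degrees of freedom, two-sided). This scale understates changes of low genes. Benjamini-Hochberg adjustment covered all tested genes, and genes were called at an adjusted p under 0.05. The mRNA table holds no read counts; the depth step was the one that placed the most low values of 1815 genes near whole multiples, so it is an estimate. Transcript shares were compared by exact permutation of 252 arrangements, a test added after transcript means had been seen.

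The members, lists and tests were chosen with earlier results of these data known. Named genes are the 8 members, other pathway genes called in a comparison or leading their list by p at 10 months, and the genes most correlated with each member. Alternatives covered pseudocount, filter, scaling, samples fitted, replicate block, weights, transcript choice, library terms and leaving out libraries. The deposited tables of non-coding transcripts and of transcripts of uncertain coding potential were not used here; gene sums take every transcript that the mRNA table lists for a gene. Of the marker genes, 1 is not reported here.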

Additional observations from a re-analysis of the deposited data

Results flagged for a closer look

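Among the 32 sets of 5 libraries (8 genes in 4 groups), 2 held a library whose gap to its nearest neighbour was more than 0.71 of the whole range of its group; chance gives such a gap in about 1 in 20 groups. Apoe in WT03M replicate 5 was 1904 FPKM, below the other 4 libraries of its group at 2051 to 2103. Apod in TG10M replicate 5 was 149 FPKM, above the other 4 at 104 to 116, and this is a library that stood apart from most of the series. No explanation of either value was tested.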

How the results depend on the processing

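At 10 months the number of the 8 genes called was 1 as reported. It was 0 with no filter (Apoe adjusted p = 0.129), quantile normalization (0.120), a fit of the compared groups alone (0.154), and Apoe's most abundant transcript in place of the gene sum (0.197), and 0 to 1 with 1 library left out. The Apoe call was kept with pseudocounts of 0.1 and 1, a filter of 1 FPKM, median centring, array weights, and without or with a term for the set apart (WT10M replicate 5, TG10M replicates 1 and 5). With the replicate number as a block, 0 of 8 were called at 10 months (Apoe adjusted p = 0.0715). The numbers do not pair the libraries: deviations of same-numbered libraries correlated at -0.425 to 0.660, and 2, 4, 3 and 1 of 10 libraries in the 4 comparisons correlated best with their own number. With age in the transgenic cortex, where 0 were called, 1 (Lrp1) was called without the set apart, 1 (Lrp1) with a term for it, and 2 (Apoe and Abcg1) with a term for libraries low in Hsp90aa1, where all tested genes gave 73, 104 and 2319 calls. The cause was not tested.

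Calls over all tested genes moved more. Over 13 such settings (12 for the interaction) they ran from 16 to 945 at 10 months, 4 to 492 at 3 months, 1 to 44 with age in the wild type, 52 to 2319 with age in the transgenic cortex and 3 to 10 for the interaction. With 1 library left out they ran from 28 to 1600 at 10 months (1600 without WT10M replicate 5), 11 to 108 at 3 months, 1 to 9 and 56 to 154 with age in the wild type and the transgenic cortex, and 4 to 6 for the interaction. Over the 13 settings, the calls of the other pathway genes were kept in 88 and lost in 29 combinations of gene, comparison and setting. With 1 library left out they were kept in 43 and lost in 47.

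Differences near 0 changed sign without being called. With a term for low Hsp90aa1, Abca1, Abcg1 and Lrp1 at 3 months were 0.084, -0.017 and 0.090, Sorl1 with age in the transgenic cortex -0.061, the Lrp1 interaction -0.047 and Abca7 with age in the wild type 0.0011. At 3 months Apoe was -0.026 after quantile normalization and -0.057 by its most abundant transcript, by which Lrp1 at 10 months was -0.061 and Abca7 with age in the wild type 0.064. Abca7 with age in the wild type was also 0.051 with array weights, 0.026 without the set apart and 0.0073 with a term for it. Interactions were 0.021 (Lcat) and 0.059 (Sorl1) without the set apart, and 0.037 (Sorl1) with a term for it and 0.0088 (Sorl1) with array weights. Without the set apart, the share of the highest transcript changed sign for Apod with age in the wild type (0.37 points) and for Abca7 at 10 months (2.80) and with age in the transgenic cortex (4.50).

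Leaving out 1 library also turned the sign of small differences: at 3 months Apoe (-0.029 to 0.041), Abca7 (-0.029 to 0.055) and Abcg1 (-0.00087 to 0.030), at 10 months Lrp1 (-0.040 to 0.057) and Sorl1 (-0.022 to 0.10), with age Abca7 in the wild type (-0.049 to 0.027) and Lcat (-0.043 to 0.13) and Sorl1 (-0.038 to 0.080) in the transgenic cortex, and the interactions of Lcat (-0.17 to 0.00062) and Sorl1 (-0.093 to 0.030). The 5 libraries a group and, for Lcat and Abca7, few fragments limit how small a difference can be seen.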
